A study of Mus musculus with 8 samples.

Results

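The last interval of an induced reprogramming series, from day 6 (D6) to day 8 (D8), was described across genes and pathways. The series holds 8 bulk RNA-seq libraries from days 2, 4, 6 and 8, with 2 libraries per day. The comparison set the 2 libraries of D8 against the 2 of D6, with the spread of each gene estimated from all 8. Of 32108 genes in the table, 15358 had at least 1 CPM (counted reads scaled by the authors to a common library total) in at least 2 of the 8 libraries and were tested. The cells were mouse embryonic fibroblasts (MEFs) of the strain 4F2A, whose doxycycline-inducible cassette of Pou5f1, Sox2, Klf4 and Myc lies in the Col1a1 locus. Per the labels, they were prepared from homozygous male embryos at 13.5 dpc. All groups carried the same cassette and received the same treatment: 2 µg/mL doxycycline added on D0 and kept in the medium, 1000 U/mL LIF, 15% KnockOut Serum Replacement and daily medium changes. D6 and D8 therefore differ by the day of harvest alone, as far as the labels say, and all sample titles carry the word Ctr. No group without doxycycline and no day 0 group was among the samples, so a change between D6 and D8 is a change between 2 days of induction. The labels speak of parallel replicates and do not state whether separate cultures or embryos were used, so a p-value here reflects how far these samples differ, and that difference may be technical alone.

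Forced expression of the 4 factors turns a minority of fibroblasts into induced pluripotent stem cells over several days. As background, early induction is known for loss of fibroblast genes, faster cell division and gain of epithelial genes, the mesenchymal-to-epithelial transition, while the endogenous pluripotency network around Nanog is switched on late and in few cells. Cells that do not complete the path can persist beside those that do, and a bulk library averages over all of them.

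The D6 libraries held 19510236 and 19548467 counted reads and the D8 libraries 19409936 and 19508365. A count of 0 allowed a level of up to 3 reads, 0.149 to 0.155 CPM over the 8 libraries, for counting error only. On the log2(CPM + 1) scale, the Euclidean distance was 19.39 between the D6 replicates, 19.06 between the D8 replicates and 27.5 to 28.6 between a D6 and a D8 library, so the days stood further apart than their replicates. Of the 20 fibroblast markers listed, the lowest in the D6 and D8 libraries was Fap, at 20.6 CPM or more. Markers of other cells were also present, with 18 of 21 macrophage and haematopoietic markers over the filter, so these markers do not tell a pure culture from a mixed one. The label of male embryos was not borne out: Xist, a marker of the silenced X in female cells, lay between 702 and 1238 CPM in the 8 libraries. Of the genes on the Y chromosome, Uty, Kdm5d, Eif2s3y and Ddx3y had maxima of 0.0964, 0.11, 0.309 and 0.333 CPM. These 4 genes were picked for this check after their values had been seen.

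Among the gene lists examined, rises between D6 and D8 were counted in 11 of 23 complement, acute-phase and lipopolysaccharide response genes. They were also counted in 7 of 12 small leucine-rich proteoglycans of the matrix. Falls were counted in 24 of 35 genes of mitosis, 11 of 41 of DNA replication, 10 of 32 integrin, laminin and basement membrane genes, 5 of 15 Notch genes and 8 of 39 interferon-induced genes, and the last count turned with the library left out. In a bulk library fewer cells of a type and less RNA per cell cannot be told apart, which holds for every level given here. In limma's moderated test with Benjamini-Hochberg adjustment (called at an adjusted p under 0.05), 725 genes were higher in D8, 4.72% of those tested, and 674 were lower, 4.39%, together 9.11%. At least 1.5-fold, as a ratio of mean CPM, 262 were higher (1.71%) and 81 lower (0.527%), and at least 2-fold 109 and 15. The genes called higher changed by a median of 0.40 on the log2(CPM + 1) scale and those called lower by a median of -0.30, against a median of -0.00096 over all tested genes. The number of called genes leaned on having all 4 libraries, because without D6 replicate 1, D6 replicate 2, D8 replicate 1 and D8 replicate 2 in turn it was 292, 293, 232 and 265 higher and 251, 202, 191 and 314 lower. Without the filter on low values 210 genes were higher and 134 lower, and without limma's trend of the variance on intensity 323 and 210; of the 181 named genes that were called, 44 and 86 kept their call. Of the 725 genes called higher, between 223 and 259 were called higher again with 1 library left out, and of the 674 called lower between 166 and 271.

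**Figure D1:**
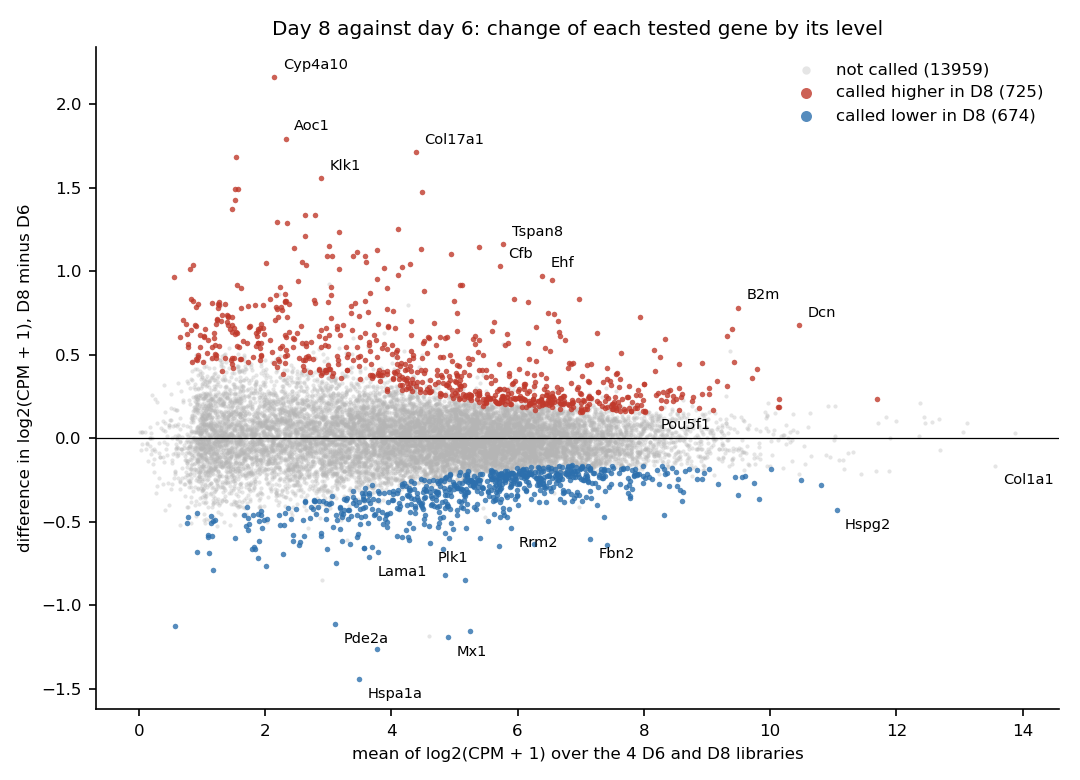
Each point is a tested gene, with the mean of log2(CPM + 1) over the 4 D6 and D8 libraries on the x axis and the difference D8 minus D6 on the y axis; colours mark genes called higher (725) or lower (674) in limma's test. The steepest rises, with Cyp4a10 at 2.16, exceed in size the steepest fall among named genes, Hspa1a at -1.44, and Pou5f1 and Col1a1 lie close to 0 at high levels.

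The genes called higher were mostly at their highest level of the series on D8. In 614 of the 725 (84.7%) both D8 libraries lay above all 6 other libraries, against 18.7% of all tested genes, and 187 (25.8%) had been under 1 CPM on average on day 2, against 7.10% of all tested genes. Without a library this count of 614 was at most 274 (D6 replicate 1 left out) and at least 214 (D8 replicate 1 left out). Among the 674 genes called lower, 412 (61.1%) had both D8 libraries below the other 6, against 10.01% of all tested genes, and 9 (1.34%) had been under 1 CPM on day 2. Here the count was 134 to 240 with 1 library left out. These shares describe genes chosen by the same contrast. A gene averaging under 1 CPM on day 2 also needed a later library at 1 CPM or more to pass the filter. The filter thus tilts such genes toward rises, so the shares under 1 CPM lend no support to a late rise. In the 15358 tested genes the D8 pair lay above the D6 pair in 28.2% and below it in 27.5%, and all 725 and 674 called genes were of these kinds.

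The 15 steepest rises among named genes were in genes of several kinds. Cyp4a10, a fatty acid hydroxylase (chromosome 4, 115518264 to 115533649 in mm10), stood at 1.22 and 0.963 CPM in the D6 libraries and 8.92 and 7.82 CPM in the D8 libraries. Its D8 mean was 7.66 times its D6 mean (2.16 ± 0.12 on the log2 scale (SE), adjusted p = 4.8e-06 in limma), and in the 4 libraries of days 2 and 4 it lay below the 3-read limit. Cyp4a10 has close paralogs, and its values were whole reads in only 2 of the 8 libraries, so a share of its reads may belong to them. Aoc1, the diamine oxidase that breaks down histamine and putrescine (chromosome 6, 48872896 to 48909188), rose from 1.69 and 1.69 to 8.501 and 8.15 CPM, or 4.93-fold (1.79 ± 0.12 on the log2 scale (SE), adjusted p = 1.1e-05). Col17a1, a transmembrane collagen of hemidesmosomes (chromosome 19, 47646344 to 47692094), rose from 11.4 and 9.77 to 38.1 and 35.8 CPM, or 3.49-fold (1.72 ± 0.12 on the log2 scale (SE), adjusted p = 1.2e-05). For all 3 genes the replicates of a day were close and the days did not overlap. On days 2 and 4 Col17a1 had been at 0.595, 0.448, 1.25 and 1.003 CPM.

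Further genes of these 15 also had no overlap between the days. The tissue kallikrein Klk1, a secreted protease with near-identical family members, rose from 2.94 and 3.71 to 10.3 and 13.2 CPM and its relative Klk11 from 3.33 and 3.38 to 9.63 and 10.4 CPM. Both were at or near 0 on day 2. The tetraspanin Tspan1, a membrane organiser, rose from 2.56 and 1.995 to 7.73 and 6.305 CPM, and Tspan8, a related gene at a higher level, from 32.7 and 38.6 to 86.1 and 76.1 CPM. Tspan8 climbed in each interval, from 0.992 and 1.096 CPM on day 2. Fgfbp1, a secreted carrier that frees fibroblast growth factors from the matrix, rose from 5.18 and 4.55 to 14.3 and 11.4 CPM. Hpgd, which inactivates prostaglandins, rose from 8.66 and 7.83 to 19.11 and 19.3 CPM. Lama3, the alpha chain of the epithelial laminin 332, rose from 14.5 and 13.4 to 30.1 and 33.4 CPM. Their differences ran from 1.13 (Hpgd) to 1.56 (Klk1) on the log2 scale. The rest of the 15 were Spaar, which encodes a small lysosomal polypeptide (2.999 and 3.13 to 8.19 and 8.64 CPM), Ttc29, a protein of the sperm flagellum (4.97 and 3.89 to 12.2 and 9.94 CPM), March1, a membrane ubiquitin ligase (11.5 and 9.003 to 28.4 and 23.1 CPM), Sox1, a transcription factor of neural progenitors (2.41 and 1.48 to 4.48 and 8.33 CPM), and Kera, described with the proteoglycans. In limma the 15 calls were kept with each library left out in turn, with an adjusted p of at most 0.039.

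**Figure D2:**
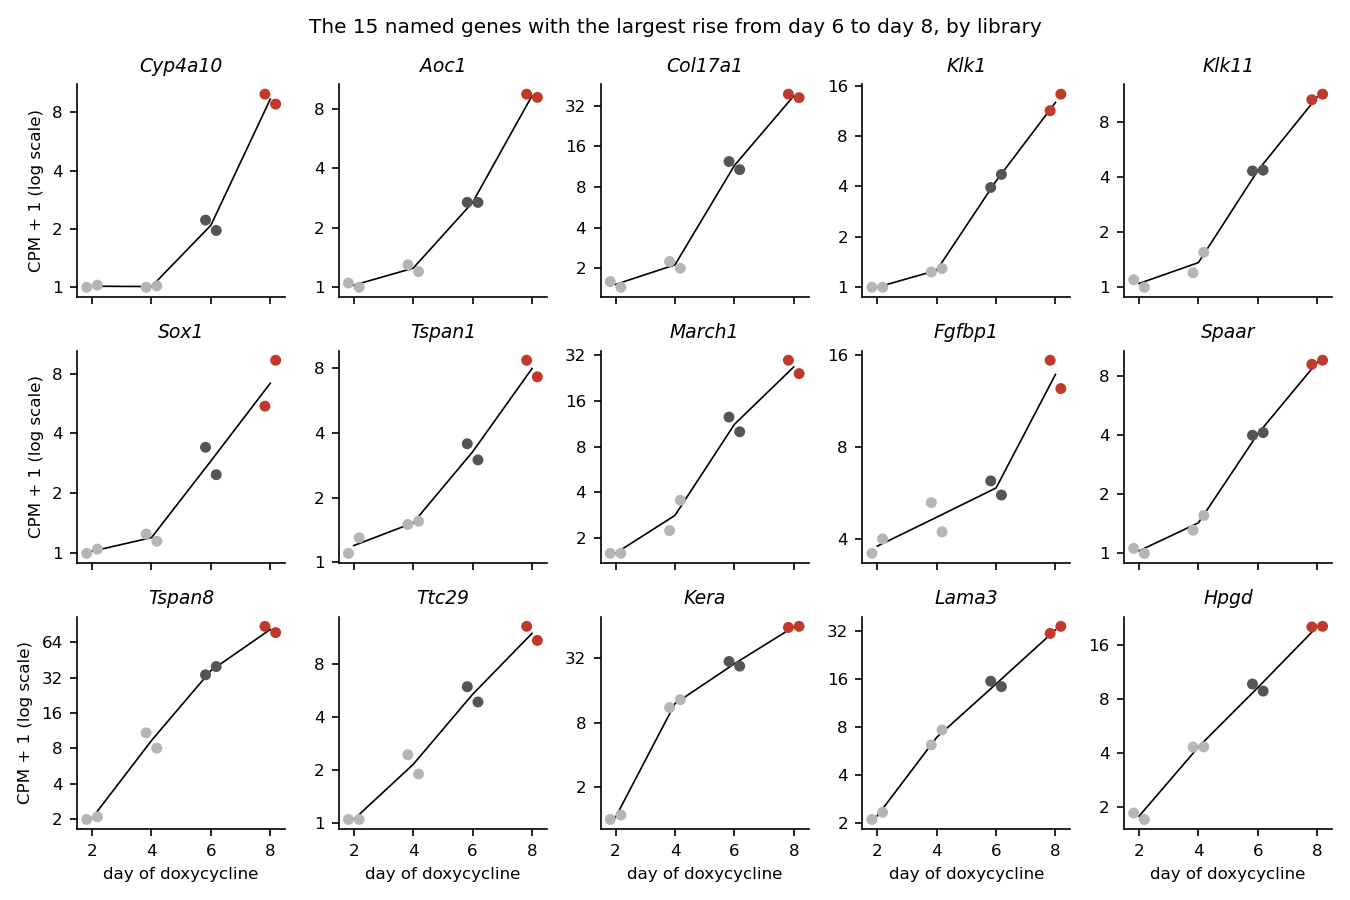
CPM + 1 on a log scale against the day of doxycycline for the 15 named genes with the largest rise; each point is a library and the line joins the means of the 2 libraries of a day on the log scale. In all 15 panels both D8 points lie above both D6 points, and Cyp4a10, Aoc1, Klk1, Klk11, Sox1, Spaar and Tspan1 start from under 1 CPM on days 2 and 4.

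Epithelial genes were split. Of 36 listed adhesion, junction, keratin and regulator genes of epithelium 24 were tested, 7 rose and 2 fell, with a median of 0.24 against -0.00096 over all tested genes; the count of rises was 3, 3, 1 and 5 without D6 replicate 1, D6 replicate 2, D8 replicate 1 and D8 replicate 2 in turn. It was 2 and 5 without the filter on low values and without the intensity trend. Ehf, an ETS factor of epithelial cells (chromosome 2, 103263433 to 103303278), stood at 67.6 and 50.7 CPM in the D6 libraries and 125 and 107 CPM in the D8 libraries (0.97 ± 0.14 on the log2 scale (SE), adjusted p = 0.0021; at most 0.031 with a library left out). Krt8, a keratin of simple epithelia, rose from 72.5 and 91.1 to 134 and 116 CPM (0.61 ± 0.14 on the log2 scale (SE), adjusted p = 0.021), a call that was lost without D6 replicate 1, D8 replicate 1 and D8 replicate 2 (adjusted p = 0.16, 0.15 and 0.05). Ovol1, a repressor of mesenchymal genes, rose from 0.999 and 1.36 to 2.86 and 2.33 CPM and Pkp3, a desmosomal plaque protein, from 1.23 and 0.972 to 2.52 and 2.204 CPM. The Ovol1 call was lost without D6 replicate 1 and D8 replicate 1 (adjusted p = 0.058 and 0.067) and the Pkp3 call without D6 replicate 2 and D8 replicate 1 (adjusted p = 0.053 and 0.057). Cdh1, the adhesion molecule E-cadherin and the usual marker of the transition, stood at 35.01 and 39.5 CPM in the D6 libraries and 32.4 and 40.7 CPM in the D8 libraries (adjusted p = 0.89), with overlapping days. Its level had moved earlier, from 5.704 and 4.43 CPM on day 2 to 17.9 and 19.3 CPM on day 4.

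Among 21 tested genes of stratified epithelium 2 rose and 1 fell, and 1 to 3 rose with a library left out. Dsg2, a desmosomal cadherin (chromosome 18, 20558074 to 20604521), rose from 10.8 and 11.7 to 23.3 and 22.8 CPM (0.98 ± 0.11 on the log2 scale (SE), adjusted p = 0.00029), kept without each library. The galectin gene Lgals7 rose from 68.1 and 78.1 to 129.6 and 116 CPM (0.74 ± 0.13 on the log2 scale (SE), adjusted p = 0.0049), a call lost without D6 replicate 1 and D8 replicate 1 (adjusted p = 0.051 and 0.058). The keratins Krt14, Krt17 and Krt6a showed differences of 0.15, -0.40 and -0.27 and were not called. With all libraries 9.52% of this list were higher and 4.76% lower, against 4.72% and 4.39% of all tested genes.

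Small leucine-rich proteoglycans, which bind collagen fibrils in the matrix of connective tissue, were the list with the highest median among the 65 examined. Of 12 members 7 rose and 0 fell, with a median of 0.41, and 7, 6, 5 and 6 rose without D6 replicate 1, D6 replicate 2, D8 replicate 1 and D8 replicate 2 in turn. The count was 4 and 6 without the filter on low values and without the intensity trend. Kera, keratocan of the corneal stroma (chromosome 10, 97606879 to 97613692), stood at 28.7 and 25.9 CPM in the D6 libraries and 60.7 and 62.2 CPM in the D8 libraries (1.14 ± 0.10 on the log2 scale (SE), adjusted p = 8.7e-05). It had been at 0 and 0.0996 CPM on day 2. Dcn, decorin (chromosome 10, 97479609 to 97518143), stood at 1175 and 1053 CPM in the D6 libraries and 1809 and 1754 CPM in the D8 libraries (0.68 ± 0.06 on the log2 scale (SE), adjusted p = 8.7e-05), and Lum, lumican (chromosome 10, 97565128 to 97572703), at 540.1 and 532 CPM in the D6 libraries and 819 and 869 CPM in the D8 libraries (0.65 ± 0.06 on the log2 scale (SE), adjusted p = 8.7e-05). All 3 genes had tight replicates and separate days, and their calls were kept without each library (adjusted p of at most 0.0029). Epyc, epiphycan of cartilage, rose from 4.23 and 2.33 to 8.96 and 6.51 CPM, a call lost without D6 replicate 2 and D8 replicate 1 (adjusted p = 0.055 and 0.075). Summed over the list, the level was 6084 and 6011 CPM in the D6 libraries and 6977 and 7176 CPM in the D8 libraries. The members Podn, Bgn and Prelp, with differences of -0.18, -0.08 and 0.00, were not called.

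Fibroblast markers moved unevenly: 6 of 20 rose, 1 fell and 13 did not pass the test, with a median of 0.06. Beside Dcn and Lum, Dpt, dermatopontin of the collagenous matrix, rose from 45.98 and 43.7 to 79.6 and 81.6 CPM (0.83 ± 0.07 on the log2 scale (SE), adjusted p = 8.7e-05) and Postn, the matricellular protein periostin, from 499 and 530.3 to 747 and 826 CPM (0.61 ± 0.06 on the log2 scale (SE), adjusted p = 8.7e-05). Both were kept without each library. Col1a1, the main chain of type I collagen, stood at 12002 and 13644 CPM in the D6 libraries and 10932 and 11929 CPM in the D8 libraries and was not called (adjusted p = 0.37). Thy1, a surface marker that fibroblasts lose during reprogramming, stood at 368 and 332 CPM in the D6 libraries and 396 and 378 CPM in the D8 libraries and was not called either (adjusted p = 0.2).

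Fibril and basement membrane components leaned down. Of 24 collagen genes 7 fell and 2 rose (median -0.11), and the falls numbered 6, 0, 0 and 7 without D6 replicate 1, D6 replicate 2, D8 replicate 1 and D8 replicate 2 in turn. This became 0 and 0 without the filter on low values and without the intensity trend. The collagen gene Col17a1, which rose 3.49-fold as described above, was not on this list and is not in its counts. Col12a1, a fibril-associated collagen, fell from 961 and 1102 to 733 and 873 CPM (-0.36 ± 0.08 on the log2 scale (SE), adjusted p = 0.02), lost without D6 replicate 2 and D8 replicate 1 (adjusted p = 0.14 and 0.14). Col6a3, of the microfibrils around cells, fell from 738 and 881 to 581 and 701 CPM, lost without D6 replicate 2 and D8 replicate 1 (adjusted p = 0.22 and 0.22). Col8a2 rose from 18.9 and 17.8 to 28.2 and 28.6 CPM, lost without D6 replicate 2, D8 replicate 1 and D8 replicate 2 (adjusted p = 0.066, 0.057 and 0.057). Collagen-processing genes followed the collagens, with 6 of 25 lower, 1 higher and 3, 1, 1 and 4 lower in the same 4 fits. Their best-supported member was Fkbp10, a collagen chaperone, which fell from 368 and 376 to 301 and 308 CPM (-0.29 ± 0.04 on the log2 scale (SE), adjusted p = 0.0029), kept without each library.

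Among 32 integrin, laminin and basement membrane genes 10 fell and 2 rose (median -0.14), with 5, 3, 2 and 7 falls without D6 replicate 1, D6 replicate 2, D8 replicate 1 and D8 replicate 2 in turn. It was 3 and 2 without the filter on low values and without the intensity trend. Lama1, the laminin alpha chain of early embryonic basement membranes (chromosome 17, 67697259 to 67822647), stood at 15.2 and 14.7 CPM in the D6 libraries and 8.501 and 9.02 CPM in the D8 libraries (-0.71 ± 0.10 on the log2 scale (SE), adjusted p = 0.0017). Its call was kept without each library, and against it stood Lama3, described above. Hspg2, which encodes the large basement membrane proteoglycan perlecan (chromosome 4, 137468769 to 137570630), fell from 2353 and 2596 to 1733 and 1938 CPM (-0.43 ± 0.10 on the log2 scale (SE), adjusted p = 0.019), lost without D6 replicate 2 and D8 replicate 1 (adjusted p = 0.12 and 0.12). In the elastic fibre and matricellular list 6 rose and 5 fell of 30, with 4, 2, 1 and 3 falls in the same 4 fits. Fbn2, the fetal fibrillin (chromosome 18, 58008623 to 58210487), fell from 184 and 164 to 108 and 120.1 CPM (-0.60 ± 0.08 on the log2 scale (SE), adjusted p = 0.00091), and Ccn5, a matricellular growth regulator, rose from 64.6 and 57.3 to 108 and 87.9 CPM (0.67 ± 0.09 on the log2 scale (SE), adjusted p = 0.00091). Both calls were kept without each library.

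Complement, acute-phase and lipopolysaccharide response genes rose in part. Many of them encode secreted proteins known as targets of STAT3 and NF-kB, made by liver and by stimulated fibroblasts. In this list 17 differences were above 0 and 6 below it. Of 23 tested members 11 rose and 0 fell (median 0.34), and 10, 6, 8 and 8 rose without D6 replicate 1, D6 replicate 2, D8 replicate 1 and D8 replicate 2 in turn. The count was 5 and 8 without the filter on low values and without the intensity trend. Cfb, complement factor B (chromosome 17, 34856374 to 34862518), stood at 32.8 and 39.1 CPM in the D6 libraries and 74.6 and 73.7 CPM in the D8 libraries (1.03 ± 0.10 on the log2 scale (SE), adjusted p = 0.0001). Hp, haptoglobin (chromosome 8, 109575128 to 109579172), rose from 23.4 and 25.4 to 42.1 and 41.2 CPM (0.75 ± 0.10 on the log2 scale (SE), adjusted p = 0.001). In both genes every D8 library was well above every D6 library, and both calls were kept without each library. C3, the central complement component, rose from 77.6 and 59.7 to 114 and 116 CPM, lost without D6 replicate 2 (adjusted p = 0.063). C4b rose from 20.3 and 25.9 to 36.1 and 46.9 CPM, lost without D6 replicate 1 and D8 replicate 2 (adjusted p = 0.057 and 0.059); its near-identical copy can share its reads. The level summed over the list was 2060.2 and 1918 CPM in the D6 libraries and 2602 and 2532 CPM in the D8 libraries, above the 518 and 519 CPM of the D2 libraries. The LIF and interleukin 6 list, which holds Stat3, its receptors and its feedback genes, had 0 rises and 0 falls among 21 genes in limma. In 10 of the 21 the D8 pair lay below the D6 pair and in 2 above it, against 27.5% and 28.2% of all tested genes. The activity of STAT3 was not tested.

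Chemokines and other secreted inflammatory genes had 7 rises and 0 falls among 26 (median 0.18), and 3, 5, 3 and 4 rises without D6 replicate 1, D6 replicate 2, D8 replicate 1 and D8 replicate 2 in turn. This became 2 and 3 without the filter on low values and without the intensity trend. Ccl11, the eosinophil attractant eotaxin (chromosome 11, 82057823 to 82062955), rose from 6.82 and 6.804 to 10.9 and 14.4 CPM (0.79 ± 0.13 on the log2 scale (SE), adjusted p = 0.0036), kept without each library. Tslp, an epithelial cytokine, rose from 0.615 and 1.02 to 2.52 and 1.74 CPM, lost without D6 replicate 1 and D8 replicate 1 (adjusted p = 0.073 and 0.084). Ccl8, a monocyte attractant, rose from 9.89 and 15.1 to 20.4 and 19.5 CPM, lost without D6 replicate 1, D8 replicate 1 and D8 replicate 2 (adjusted p = 0.12, 0.1 and 0.069). Cxcl10, which interferon induces, stood apart at 44.7 and 27.8 CPM in the D6 libraries and 7.496 and 28.9 CPM in the D8 libraries and was not called (adjusted p = 0.085); its D8 replicates lay far apart. Macrophage and haematopoietic markers stood at a summed level of 155 and 173 CPM in the D6 libraries and 136 and 119 CPM in the D8 libraries.

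Interferon-induced and major histocompatibility complex (MHC) class I genes are shown with sequences from their promoters. Both gene groups are known to respond to interferon through a short element, the interferon-stimulated response element, read by factors of the IRF family. The motif GAAANNGAAA was searched on both strands in the 250 bases before the start of each gene in RefSeq (GRCm38.p6), with N for any base. It occurred in 2.98% of 32851 windows and in 3.46% of 27025 genes. Of the 29 listed interferon genes with a window 15 held it, among them 4 of 6 called lower and 11 of 23 not called, and of 20 class I genes with a window 3 held it. A match describes letters and not a bound site. Rsad2 and Ifit3 are shown as genes called lower and B2m as the class I gene called higher with a match, each read along the gene's own strand, with the matches in capitals. The match begins 120 bases before the start in Rsad2, 156 and 122 bases in Ifit3 and 139 bases in B2m.
Rsad2, chr12:26456453-26456702, minus strand: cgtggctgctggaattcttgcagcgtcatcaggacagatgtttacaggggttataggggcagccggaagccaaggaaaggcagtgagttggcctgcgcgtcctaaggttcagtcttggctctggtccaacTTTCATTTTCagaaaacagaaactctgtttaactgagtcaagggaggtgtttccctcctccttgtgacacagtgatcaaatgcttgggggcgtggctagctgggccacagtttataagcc
Ifit3, chr19:34583279-34583528, plus strand: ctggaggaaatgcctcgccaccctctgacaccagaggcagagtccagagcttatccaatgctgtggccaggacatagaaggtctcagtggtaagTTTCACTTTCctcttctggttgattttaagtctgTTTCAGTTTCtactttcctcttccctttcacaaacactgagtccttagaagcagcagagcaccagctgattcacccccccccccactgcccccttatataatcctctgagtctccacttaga
B2m, chr2:122147437-122147686, plus strand: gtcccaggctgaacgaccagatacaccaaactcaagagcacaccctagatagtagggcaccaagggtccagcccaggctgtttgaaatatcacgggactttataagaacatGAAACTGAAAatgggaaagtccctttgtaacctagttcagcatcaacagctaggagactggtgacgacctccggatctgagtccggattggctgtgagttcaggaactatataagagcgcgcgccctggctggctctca

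Interferon response genes fell in part. Of 39 tested 8 were called lower and 1 higher (median -0.16), but the falls numbered 11, 1, 0 and 9 and the rises 0, 4, 0 and 1 without D6 replicate 1, D6 replicate 2, D8 replicate 1 and D8 replicate 2 in turn. Without D6 replicate 2 the list thus turned, with 4 genes called higher and 1 lower, and without the filter on low values and without the intensity trend 0 and 0 were called lower. Mx1, an antiviral GTPase (chromosome 16, 97447035 to 97462907), stood at 51.3 and 37.9 CPM in the D6 libraries and 12.99 and 26.8 CPM in the D8 libraries (-1.19 ± 0.28 on the log2 scale (SE), adjusted p = 0.021). Rsad2, the antiviral enzyme viperin (chromosome 12, 26442746 to 26456452), stood at 58.99 and 52.2 CPM in the D6 libraries and 16.7 and 35.3 CPM in the D8 libraries (-1.16 ± 0.28 on the log2 scale (SE), adjusted p = 0.027). In both genes D8 replicate 1 was lowest and D8 replicate 2 nearer to D6. Ifit2, which blocks viral translation, stood at 54.7 and 41.1 CPM in the D6 libraries and 17.3 and 38.3 CPM in the D8 libraries, and Cmpk2, a mitochondrial nucleotide kinase beside Rsad2, at 39.7 and 34.8 CPM in the D6 libraries and 15.3 and 27.8 CPM in the D8 libraries. The calls were lost for Mx1 without D6 replicate 1 and D8 replicate 1 (adjusted p = 0.14 and 0.15), for Rsad2 without D6 replicate 1, D6 replicate 2 and D8 replicate 1 (adjusted p = 0.14, 0.088 and 0.2), for Ifit2 without D6 replicate 1, D6 replicate 2 and D8 replicate 1 (adjusted p = 0.26, 0.08 and 0.28) and for Cmpk2 without D6 replicate 1, D6 replicate 2 and D8 replicate 1 (adjusted p = 0.17, 0.087 and 0.21). Ifi27 was the member called higher, from 37.98 and 38.6 to 53.1 and 49.2 CPM (0.41 ± 0.08 on the log2 scale (SE), adjusted p = 0.012), a call lost without D6 replicate 1, D6 replicate 2 and D8 replicate 1 (adjusted p = 0.069, 0.059 and 0.1). The D6 replicates differed over the whole list, with replicate 2 higher than replicate 1 by a median of 0.36 on the log2 scale, against -0.0044 over all tested genes, and the D8 replicates by 0.091. Isg15, a ubiquitin-like modifier, shows this with 35.2 and 75.7 CPM in the D6 libraries and 34.2 and 39.9 CPM in the D8 libraries.

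Early in the series this list had risen. In the step from day 2 to day 4, whose libraries are not those of D6 and D8, 38 of the 39 were called higher and 0 lower, against 40.9% and 21.7% of all tested genes. In limma's test of the difference between the steps, (D8 - D6) - (D4 - D2), 36 of the 39 had the lower change in the last step, against 33.5% of all tested genes (17.8% had the higher, 51.4% together). The rise in the first step can give such a call by itself, so it does not show a fall from D6 to D8. Mx1, at 0.744 and 0.0498 CPM on day 2, had reached 32.6 and 39.2 CPM on day 4. Summed over the list, the level was 2155 and 2971 CPM in the D6 libraries and 2092 and 2312 CPM in the D8 libraries, against 292 and 285 CPM on day 2.

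MHC class I genes rose in part, in a count that leaned on D6 replicate 1 and on both D8 libraries. Of 23 genes of heavy chains, peptide loading and the immunoproteasome 6 were called higher and 0 lower (median 0.18). B2m, the light chain of all class I molecules (chromosome 2, 122147686 to 122153083), stood at 413 and 726 CPM in the D6 libraries and 964 and 921 CPM in the D8 libraries (0.78 ± 0.18 on the log2 scale (SE), adjusted p = 0.02). H2-K1, a classical heavy chain (chromosome 17, 33996017 to 34000347), stood at 47.8 and 90.4 CPM in the D6 libraries and 131 and 125 CPM in the D8 libraries (0.95 ± 0.20 on the log2 scale (SE), adjusted p = 0.015), and H2-D1 at 97.8 and 153 CPM in the D6 libraries and 193 and 187 CPM in the D8 libraries. In all 3 genes D6 replicate 2 lay between D6 replicate 1 and the D8 pair. The number called higher was 1, 6, 0 and 0 without D6 replicate 1, D6 replicate 2, D8 replicate 1 and D8 replicate 2 in turn. It was 0 and 0 without the filter on low values and without the intensity trend. The B2m call was lost without D6 replicate 1, D8 replicate 1 and D8 replicate 2 (adjusted p = 0.062, 0.11 and 0.075), that of H2-K1 without D8 replicate 1 and D8 replicate 2 (adjusted p = 0.091 and 0.063) and that of H2-D1 without D6 replicate 1, D8 replicate 1 and D8 replicate 2 (adjusted p = 0.13, 0.12 and 0.09). The heavy chain genes share near-identical sequence, and H2-K1 and H2-D1 had whole reads in 0 of the 8 libraries, so their split is uncertain. Tap1, the peptide transporter, with a difference of -0.15, and Calr, a chaperone, with 0.03, were not called.

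**Figure D3:**
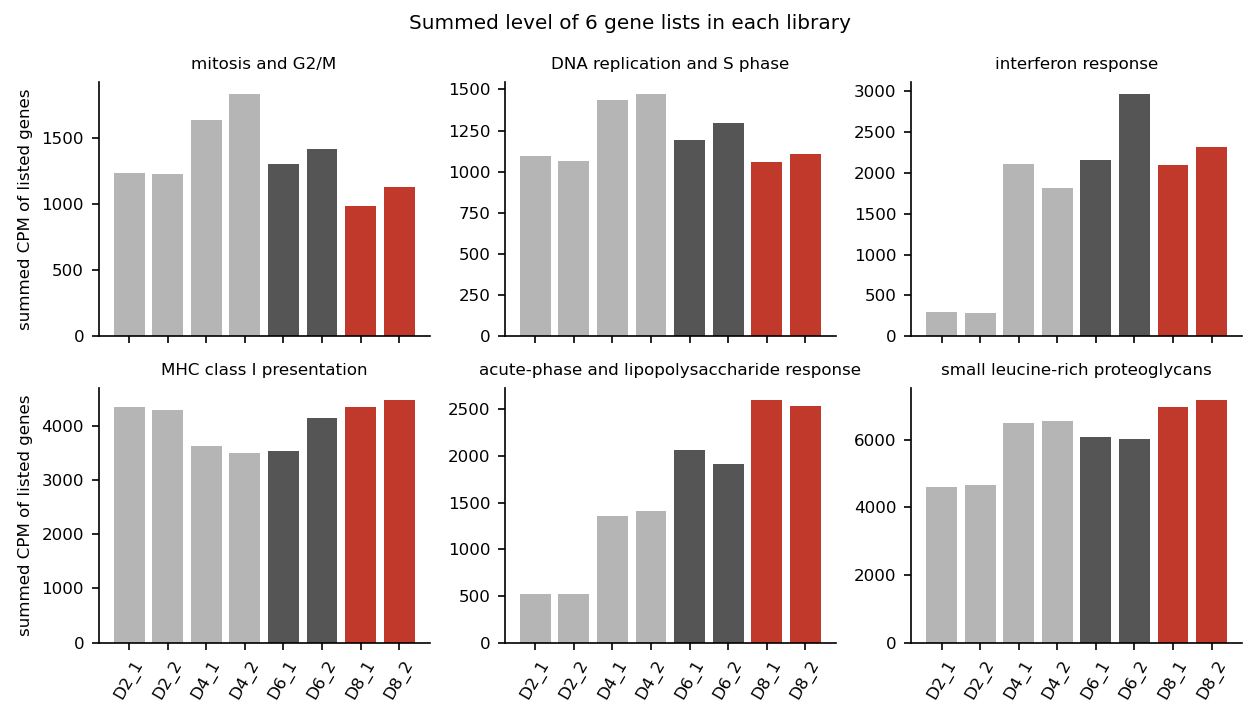
Bars give the summed CPM of the listed genes in each of the 8 libraries, from day 2 (left) to day 8 (right, red), with the D6 libraries in dark grey. The mitosis list is lower in both D8 libraries (987 and 1127 CPM) than in both D6 libraries (1300.2 and 1413 CPM), the acute-phase list is higher, and the interferon and MHC class I lists differ between the D6 replicates.

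Genes of cell division fell. Mitotic genes are known to share a CCAAT box, the site of the factor NF-Y, in their proximal promoters, so the windows of a mitotic and a replication gene are shown. CCAAT, searched on both strands in the same windows, occurred in 33.9% of windows and 37.5% of genes. It was in 23 of 30 mitosis genes with a window, 17 of 19 called lower and 6 of 11 not called, and in 21 of 33 S phase genes. CCAAT was not particular to these lists: it was in 15 of 20 MHC class I genes, 5 of 6 of those called higher among them. It was in 12 of 29 interferon genes, 3 of 10 proteoglycan genes and 2 of 15 acute-phase genes. TTTGAA, the letters of the cell cycle homology region, was in 18.3% of genes and in 9 of 30 mitosis genes with a window. Of the 19 mitosis genes called lower 8 held it, Cdc20 among them. It was also in 5 of 10 proteoglycan genes, 5 of 33 S phase genes, 5 of 29 interferon genes, 3 of 15 acute-phase genes and 1 of 20 class I genes. Capitals mark CCAAT, which begins 53 and 8 bases before the start in Cdc20 and 50 bases before it in Rrm2.
Cdc20, chr4:118437344-118437593, minus strand: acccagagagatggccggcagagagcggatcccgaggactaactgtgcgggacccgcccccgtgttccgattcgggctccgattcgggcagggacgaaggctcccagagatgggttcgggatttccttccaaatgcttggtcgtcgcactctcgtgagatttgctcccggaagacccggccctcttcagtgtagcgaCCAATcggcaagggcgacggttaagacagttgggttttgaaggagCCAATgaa
Rrm2, chr12:24708004-24708253, plus strand: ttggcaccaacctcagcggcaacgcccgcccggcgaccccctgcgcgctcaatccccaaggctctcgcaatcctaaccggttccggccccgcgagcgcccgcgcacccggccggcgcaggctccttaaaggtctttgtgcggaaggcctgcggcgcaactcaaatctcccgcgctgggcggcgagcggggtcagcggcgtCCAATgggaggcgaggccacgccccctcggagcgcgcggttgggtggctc

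Of 35 genes of mitosis and G2/M 24 were called lower and 0 higher, with a median of -0.34, the lowest of the 65 lists. All 35 differences were below 0, and in 33 both D8 libraries lay below both D6 libraries, against 27.5% of all tested genes. Plk1, the kinase that drives entry into mitosis (chromosome 7, 122159439 to 122169873), stood at 26.1 and 32.8 CPM in the D6 libraries and 17.3 and 20.004 CPM in the D8 libraries (-0.63 ± 0.11 on the log2 scale (SE), adjusted p = 0.0044). Foxm1, the transcription factor of G2/M genes (chromosome 6, 128362967 to 128376146), stood at 32.04 and 36.4 CPM in the D6 libraries and 21.3 and 24.2 CPM in the D8 libraries (-0.57 ± 0.10 on the log2 scale (SE), adjusted p = 0.0051). Mki67, the proliferation antigen Ki-67 (chromosome 7, 135689784 to 135716361), stood at 187 and 202 CPM in the D6 libraries and 120.2 and 162 CPM in the D8 libraries (-0.47 ± 0.13 on the log2 scale (SE), adjusted p = 0.041). In each gene the D8 pair was below the D6 pair, and D8 replicate 1 was below replicate 2. Cdc20, which activates the anaphase-promoting complex, had a difference of -0.43, and Ccnb1, cyclin B1, of -0.40. The number of falls was 17, 5, 2 and 21 without D6 replicate 1, D6 replicate 2, D8 replicate 1 and D8 replicate 2 in turn. The count was 0 and 9 without the filter on low values and without the intensity trend. The Plk1 call was lost without D8 replicate 1 (adjusted p = 0.051), that of Foxm1 without D6 replicate 2 and D8 replicate 1 (adjusted p = 0.053 and 0.057) and that of Mki67 without D6 replicate 1, D6 replicate 2 and D8 replicate 1 (adjusted p = 0.1, 0.17 and 0.28). The list's level was summed to 1300.2 and 1413 CPM in the D6 libraries and 987 and 1127 CPM in the D8 libraries.

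DNA replication genes fell in part. Of 41 tested 11 were called lower and 0 higher (median -0.16), with 8, 2, 3 and 9 falls without D6 replicate 1, D6 replicate 2, D8 replicate 1 and D8 replicate 2 in turn. This became 2 and 6 without the filter on low values and without the intensity trend. Rrm2, the subunit of ribonucleotide reductase that limits dNTP synthesis (chromosome 12, 24708241 to 24714146), stood at 67.6 and 73.2 CPM in the D6 libraries and 44.1 and 52.5 CPM in the D8 libraries (-0.54 ± 0.07 on the log2 scale (SE), adjusted p = 0.0012), kept without each library. Mcm5, of the replicative helicase, fell from 29.3 and 33.05 to 19.8 and 23.5 CPM and Lig1, the ligase of Okazaki fragments, from 34.6 and 36.8 to 22.3 and 27.6 CPM. Mcm5 was kept without each library, and Lig1 was lost without D6 replicate 2 and D8 replicate 1 (adjusted p = 0.054 and 0.059). Pcna, the polymerase clamp, with a difference of -0.05, and Tyms, thymidylate synthase, with -0.04, were not called. In the step from day 2 to day 4, 36 of these 41 and 31 of the 35 mitosis genes had risen. The difference between the steps was called with the lower change in the last step for 34 of the 41 and for all 35, against 33.5% of all tested genes. Here too the rise in the first step can give such a call by itself. Histone genes whose mRNAs carry no poly(A) tail had 0 calls in limma among 17. Over all tested genes 4.72% were called higher and 4.39% lower. Cell cycle inhibitors and p53 targets had 2 rises and 3 falls among 28 (0 rises and 0 to 3 falls with a library left out), of which Sesn2, a stress-induced inhibitor of growth signalling, fell from 118 and 116 to 91.8 and 96.2 CPM (lost without D8 replicate 1 (adjusted p = 0.052)).

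**Figure D4:**
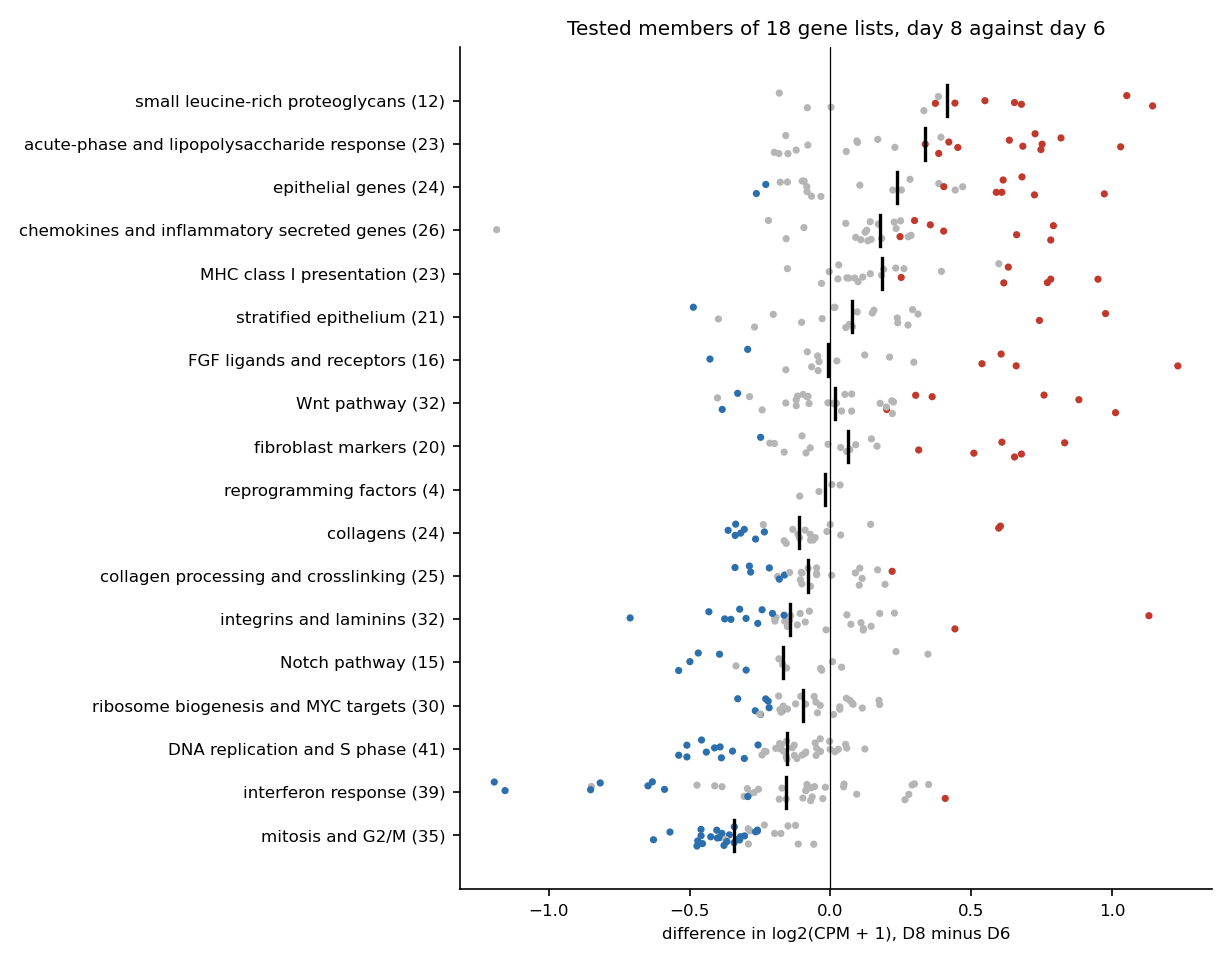
Each point is a tested gene of a list, placed by its difference in log2(CPM + 1), D8 minus D6, with red for genes called higher and blue for genes called lower; black bars mark the medians and brackets the number tested. The proteoglycan list (median 0.41) and the mitosis list (median -0.34) lie at the ends, while the 4 reprogramming factors sit near 0.

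The steepest falls outside these groups were of diverse kinds. Hspa1a (chromosome 17, 34969190 to 34972156), the stress-inducible chaperone HSP70, stood at 14.4 and 21.3 CPM in the D6 libraries and 5.4998 and 6.15 CPM in the D8 libraries (-1.44 ± 0.14 on the log2 scale (SE), adjusted p = 9.8e-05), and its near-identical neighbour Hspa1b at 16.6 and 24.1 CPM in the D6 libraries and 7.16 and 8.43 CPM in the D8 libraries. Both had fallen from day 2 to day 4 as well and were higher again on D6. The reads of this pair cannot be told apart with certainty. Among the other 20 heat shock and chaperonin genes listed 1 fell and 0 rose (median 0.02). The 1 was Hspa4l, an HSP110 family chaperone, from 24.98 and 20.9 to 16.6 and 18.9 CPM, lost without D6 replicate 1, D8 replicate 1 and D8 replicate 2 (adjusted p = 0.29, 0.24 and 0.062). Pde2a, a phosphodiesterase stimulated by cGMP (chromosome 7, 101421691 to 101512827), fell from 12.4 and 11.05 to 5.02 and 4.72 CPM (-1.11 ± 0.10 on the log2 scale (SE), adjusted p = 8.7e-05). E2f8, an E2F repressor of the cell cycle (chromosome 7, 48866429 to 48881596), fell from 10.05 and 10.4 to 5.51 and 5.88 CPM (-0.75 ± 0.09 on the log2 scale (SE), adjusted p = 0.00033) after falling in each earlier interval from 20.01 and 19.3 CPM. Lgr6, a receptor for R-spondins, fell from 14.9 and 18.2 to 9.48 and 10.3 CPM, Epop, a partner of Polycomb repressive complex 2, from 32.3 and 36.9 to 19.9 and 23.02 CPM, and Metrn, a secreted neurotrophic factor, from 14.1 and 13.6 to 9.402 and 7.51 CPM. The mitotic kinesin Kif14 fell from 13.5 and 14.3 to 7.26 and 9.74 CPM. The calls of these 8 genes were kept without each library (adjusted p of at most 0.043). Dusp15, a phosphatase, fell from 5.48 and 4.86 to 3.14 and 2.51 CPM, lost without D6 replicate 1 and D8 replicate 2 (adjusted p = 0.057 and 0.06).

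**Figure D5:**
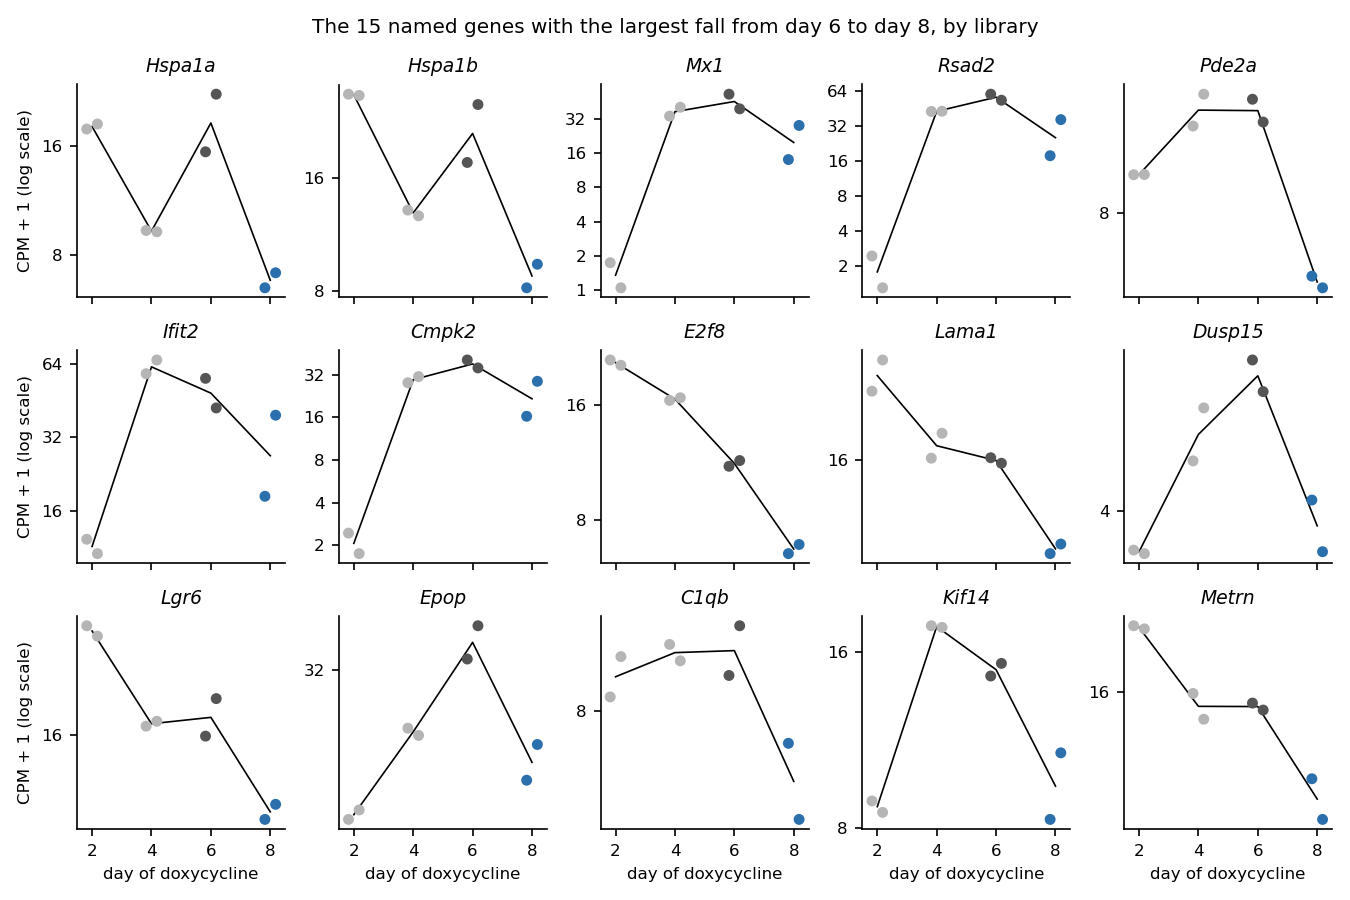
CPM + 1 on a log scale against the day of doxycycline for the 15 named genes with the largest fall; each point is a library and the line joins the means of the 2 libraries of a day on the log scale. Both D8 points lie below both D6 points in all 15 panels, and Mx1, Rsad2, Ifit2 and Cmpk2 show wide gaps between the D8 replicates.

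Signalling genes changed in single members more than as pathways. In the Notch list 5 of 15 fell and 0 rose (median -0.17), with 2, 1, 2 and 1 falls without D6 replicate 1, D6 replicate 2, D8 replicate 1 and D8 replicate 2 in turn. It was 0 and 3 without the filter on low values and without the intensity trend. The receptor gene Notch3 (chromosome 17, 32120820 to 32166852) fell from 55.6 and 51.9 to 39.8 and 35.7 CPM (-0.50 ± 0.08 on the log2 scale (SE), adjusted p = 0.0037), kept without each library. The target Hey2 fell from 3.64 and 3.68 to 2.32 and 2.102 CPM, lost without D6 replicate 1, D6 replicate 2, D8 replicate 1 and D8 replicate 2 (adjusted p = 0.066, 0.074, 0.054 and 0.082), and Lfng, which glycosylates Notch, from 11.1 and 11.1 to 8.24 and 7.28 CPM, lost without D6 replicate 1, D6 replicate 2 and D8 replicate 2 (adjusted p = 0.058, 0.058 and 0.076). The ligand Jag1 had a difference of 0.04 and was not called. In the Wnt list 6 of 32 rose and 2 fell, with 4, 2, 2 and 2 rises in the same fits. The R-spondin receptor Lgr5 (chromosome 10, 115450311 to 115587780) rose from 18.1 and 13.7 to 29.8 and 30.04 CPM (0.88 ± 0.12 on the log2 scale (SE), adjusted p = 0.00091), opposite to its relative Lgr6. Sfrp4, a secreted Wnt antagonist, rose from 4.72 and 5.94 to 9.69 and 14.1 CPM (1.01 ± 0.15 on the log2 scale (SE), adjusted p = 0.0027). Both calls were kept without each library. Axin2, the common Wnt target, had a difference of -0.12 and was not called.

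Among growth factors, Fgf7, which acts on epithelial cells, rose from 21.1 and 21.3 to 33.5 and 32.03 CPM (0.61 ± 0.08 on the log2 scale (SE), adjusted p = 0.001), kept without each library, and Etv4, a transcription factor induced by FGF and ERK signalling, fell from 23.9 and 21.3 to 15.9 and 13.5 CPM (-0.59 ± 0.09 on the log2 scale (SE), adjusted p = 0.0029), kept likewise. The FGF list had 4 rises and 2 falls among 16 genes, and 3, 2, 4 and 2 rises and 0, 0, 0 and 1 falls without D6 replicate 1, D6 replicate 2, D8 replicate 1 and D8 replicate 2 in turn. Of 21 genes of the insulin-like growth factor axis 5 rose and 5 fell, and in the same fits 3, 0, 1 and 1 rose and 1, 3, 1 and 4 fell. Igf1 itself rose from 103 and 72.9 to 132 and 129.9 CPM, a call lost without D6 replicate 2, D8 replicate 1 and D8 replicate 2. Igf2r, the receptor that clears IGF2, fell from 434 and 452 to 315 and 368 CPM. Its call was kept without each library, though narrowly without D6 replicate 2 and D8 replicate 1. Over all tested genes limma called 4.72% higher and 4.39% lower. TGF-beta genes had 1 rise and 3 falls among 23 (0 or 1 of each with a library left out), and BMP genes 0 of either kind among 25 in limma. Contractile genes, of which 22 of 24 had fallen from day 2 to day 4, had 3 rises and 1 fall, and 1, 3, 1 and 5 rises in these fits. Tagln, transgelin of smooth muscle, rose from 97.4 and 97.8 to 147 and 120.1 CPM (0.44 ± 0.08 on the log2 scale (SE), adjusted p = 0.0044), kept without each library, after 449 and 448 CPM on day 2. Myh10, a nonmuscle myosin, fell from 154 and 151 to 120.5 and 118 CPM (-0.35 ± 0.05 on the log2 scale (SE), adjusted p = 0.0011), also kept.

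The reprogramming factors themselves were level over this interval. Pou5f1 stood at 276 and 285 CPM in the D6 libraries and 277 and 286 CPM in the D8 libraries, with a difference of 0.00 ± 0.05 (SE, adjusted p = 0.96 in limma). Sox2 stood at 226 and 222 CPM in the D6 libraries and 203 and 212 CPM in the D8 libraries, with a difference of -0.11 (adjusted p = 0.18). Klf4 stood at 608 and 611 CPM in the D6 libraries and 589.5 and 596 CPM in the D8 libraries (adjusted p = 0.64) and Myc at 701 and 699 CPM in the D6 libraries and 712 and 722 CPM in the D8 libraries (adjusted p = 0.7). The libraries of the 2 days overlapped for Pou5f1. For Sox2 and Klf4 the D8 pair lay just below the D6 pair and for Myc just above it, with no call. Each gene has a single value in the table, so transcripts of the cassette and of the endogenous genes were not separated.

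Of 39 pluripotency genes 14 passed the filter, 2 rose and 2 fell. Tfcp2l1, a transcription factor of naive pluripotency (chromosome 1, 118627945 to 118685168), stood at 3.82 and 2.99 CPM in the D6 libraries and 7.81 and 8.24 CPM in the D8 libraries (1.04 ± 0.14 on the log2 scale (SE), adjusted p = 0.001). This call was kept without each library, and the gene had been under 1.1 CPM on days 2 and 4. Gdf3, a TGF-beta family ligand of pluripotent cells, rose from 5.84 and 3.99 to 7.95 and 7.95 CPM, lost without D6 replicate 2, D8 replicate 1 and D8 replicate 2 (adjusted p = 0.2, 0.12 and 0.11). Nanog, a core factor of the pluripotent state, lay between 0.378 and 0.569 CPM in the 4 libraries, above the 3-read limit and under the filter; in the fit without the filter its difference was -0.04 (adjusted p = 0.92). Zfp42, another marker of that state, lay between 0.103 and 0.359 CPM, and 14 of the 39 genes were at or under the 3-read limit in the D6 and D8 libraries. Mybl2, a cell cycle factor on the list, fell from 11.6 and 13.6 to 7.66 and 9.48 CPM, lost without D6 replicate 2 and D8 replicate 1 (adjusted p = 0.14 and 0.15).

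Growth, stress and metabolic lists differed in their share of calls, against 4.72% higher and 4.39% lower over all tested genes. Of 79 cytosolic ribosomal protein genes 3 rose (0 or 1 with a library left out) and 0 fell, and of 36 mitochondrial ones limma called 0. In ribosome biogenesis and MYC target genes 7 of 30 fell (23.3%), a count that dropped to 0, 0, 0 and 1 without D6 replicate 1, D6 replicate 2, D8 replicate 1 and D8 replicate 2 in turn and to 0 and 0 without the filter on low values and without the intensity trend. Cad, which starts pyrimidine synthesis, fell from 117 and 118 to 89.3 and 97.6 CPM, lost without D6 replicate 1, D6 replicate 2, D8 replicate 1 and D8 replicate 2 (adjusted p = 0.1, 0.12, 0.17 and 0.056). In the ATF4 list, of the amino acid stress response, 6 of 23 fell (26.1%) and 1 rose, with 5, 4, 3 and 5 falls in the fits with a library left out and 1 and 3 without the filter on low values and without the intensity trend. Phgdh, the first enzyme of serine synthesis (chromosome 3, 98313170 to 98339990), fell from 73.4 and 71.5 to 57.2 and 52.2 CPM (-0.40 ± 0.07 on the log2 scale (SE), adjusted p = 0.0043) and Pck2, a mitochondrial carboxykinase, from 70.9 and 69.3 to 57.4 and 55.1 CPM (-0.31 ± 0.06 on the log2 scale (SE), adjusted p = 0.006). Both calls were kept without each library. Cholesterol genes had 3 rises and 1 fall among 24, fatty acid genes 0 and 3 among 20, glycolysis 1 and 1 among 22 and the hypoxia list 4 and 2 among 22. With a library left out the counts of these 4 lists changed. The cholesterol rises were lost in each such fit and the fatty acid falls in most. Mitochondrially encoded respiratory genes had 0 calls in limma among 13, with a median of 0.11.

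Markers of the other cell types that such a culture could hold were examined as lists, beside 4.72% higher and 4.39% lower over all tested genes. Of 18 tested macrophage and haematopoietic markers 2 fell and 0 rose (median -0.31), with 2, 0, 1 and 0 falls without D6 replicate 1, D6 replicate 2, D8 replicate 1 and D8 replicate 2 in turn. C1qb, a complement chain made by macrophages, stood at 8.05 and 9.77 CPM in the D6 libraries and 6.13 and 4.46 CPM in the D8 libraries (-0.66 ± 0.14 on the log2 scale (SE), adjusted p = 0.013), lost without D6 replicate 2 and D8 replicate 2 (adjusted p = 0.1 and 0.093). Fcer1g, an adaptor of immune receptors, fell from 3.23 and 3.48 to 1.91 and 1.59 CPM, lost without D6 replicate 1, D6 replicate 2, D8 replicate 1 and D8 replicate 2 (adjusted p = 0.061, 0.093, 0.054 and 0.099). The other 16 tested markers did not pass the test. The part of these cells in the other results was not tested. In the neural list Sox1, described above, rose while Tubb3, a tubulin of neurons, fell from 59.1 and 62.9 to 44.1 and 43.2 CPM (-0.47 ± 0.06 on the log2 scale (SE), adjusted p = 0.00054), kept without each library. Muscle and extraembryonic lists had 0 calls in limma among 7 and 5 tested genes, with 10 of 22 and 7 of 21 listed genes at or under the 3-read limit. Endothelial markers had 1 rise and 0 falls among 9, bone and cartilage markers 2 and 0 among 11 and adipocyte markers 1 and 0 among 7, and the rises of these 3 lists numbered 0 to 2 with a library left out.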

How the data were processed

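RNA-seq was made from 8 libraries of 4F2A MEFs, 2 per day, with TRIzol RNA and a BGISEQ-500 instrument per the labels. The submitters' processing notes name Trimmomatic 0.39, featureCounts and mm10, while the aligner, the annotation and the strandedness of counting were not given in the sources used here. Values deposited by the authors are CPM, counted reads scaled to a common library total, although the table's name says TPM. Each value was a whole multiple of a hundredth of a read, and 52.8% to 54.3% were whole reads (tolerance 0.02 hundredths), so some reads were shared between genes, depths are recovered from the step, and no count test was run. Scaling to the library total makes a gene's value depend on all others.

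Symbols and coordinates came from GENCODE M21 for 32029 genes, and promoter windows from RefSeq GRCm38.p6. Fits used R 4.3.3 and limma 3.58.1, by lmFit and eBayes with a trend, on log2(CPM + 1), which understates the change of low genes, with a coefficient per day over all 8 libraries. Its two-sided test was adjusted by Benjamini-Hochberg over 15358 genes. On simulated data for D8 against D6 with all 15358 genes, 75 of 100 genes changed by 0.5 on the log2 scale were called, 96 of 100 changed by 1, and 7 of 15158 unchanged ones. The noise was drawn independently for each gene and library, and the changed genes were taken only from those above a low level. Shifts shared by many genes of a library, as between the D6 replicates in the interferon list, were not simulated. The simulated counts therefore give no error rate or power for the measured libraries. Counts and figures were made in Python 3.11.15 (pandas 2.3.3, numpy 2.4.6, matplotlib 3.10.9).

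The comparison and the 65 gene lists were chosen with earlier results of these data known. Lists are described by counts and medians, without a set test. Named were the 15 largest rises and falls among called genes with no overlap between days whose higher day averaged 5 CPM or more (gene models and pseudogenes left out), up to 4 called genes with the largest change per list, and Pou5f1, Sox2, Klf4, Myc, Nanog, Cdh1, Thy1, Col1a1 and Xist. Not all genes so taken are printed, a few listed genes are not reported here, and members that stand apart in a list were also named. The alternatives were a pseudocount of 0.1, no filter, a filter of 5 CPM, median-of-ratios and quantile scaling, a fit of D6 and D8 alone, no trend, a replicate block and leaving out each library.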

Additional observations from a re-analysis of the deposited data

Results flagged for a closer look

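Limma's test of the difference compared the last step (D8 minus D6) with the first step (D4 minus D2), which share no library. Of the 15 named genes with the largest fall, 8 passed it and moved down in the last step after moving up in the first. In these 8 each D8 library lay below each D6 library and each day 4 library above each day 2 library. The count does not cover other named genes, and Mybl2 is 1 example that also met these conditions. In the mitosis list 31 of 35 genes had risen in the first step, and in 33 the D8 pair lay below the D6 pair. All 35 passed the test with the lower change in the last step, so the pattern was not particular to the 8. Of all tested genes 51.4% passed this test in either direction. The 8 were picked by values that the test reuses, so a negative difference was set in advance and lends no support to a late fall. The first step alone was a rise of 4.76 in Mx1 and 0.42 in Pde2a on the log2(CPM + 1) scale. The D8 against D6 calls of Mx1, Rsad2, Ifit2, Cmpk2 and Dusp15 were lost with some libraries left out, as given above. The values are the last step minus the first on the log2(CPM + 1) scale, with adjusted p from limma. For the interferon genes they were -5.96 for Mx1 (adjusted p = 6.8e-08), -5.74 for Rsad2 (adjusted p = 1.3e-07), -4.66 for Cmpk2 (adjusted p = 5.2e-08) and -3.30 for Ifit2 (adjusted p = 5.4e-06). The mitotic kinesin Kif14 had -1.68 (adjusted p = 2.3e-06) and the phosphodiesterase Pde2a -1.53 (adjusted p = 2.3e-06). Dusp15 had -1.23 (adjusted p = 9e-05) and Epop -1.12 (adjusted p = 6.6e-06). Pde2a stood at 8.51 and 8.52 CPM on day 2, 10.8 and 12.7 on day 4, 12.4 and 11.05 on D6 and 5.02 and 4.72 on D8, its lowest pair.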

How the results depend on the processing

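Counts of called genes depended on the settings, while no named gene called as reported reversed its direction under any of them. With a pseudocount of 0.1, 151 genes were higher at least 1.5-fold and 398 higher genes lay beyond all other libraries. Without a filter on low values, 210 genes were higher and 134 lower, 123 and 19 of them at least 1.5-fold, and 198 and 91 lay beyond all other libraries. With a filter of 5 CPM, 136 were higher and 51 lower at least 1.5-fold. With only the D6 and D8 libraries in the fit, 593 genes were higher and 458 lower. Of these lower genes 271 lay beyond all others, and the test between steps could not be run. Without the intensity trend, 323 genes were higher and 210 lower, 53 of the latter at least 1.5-fold, and 307 and 149 lay beyond all other libraries. Leaving out 1 library at a time gave 232 to 293 genes higher, 191 to 314 lower, 146 to 178 higher and 36 to 74 lower at least 1.5-fold, and 214 to 274 and 134 to 240 beyond all other libraries. The causes were not tested. The test between steps gave 6945 to 7325 genes with 1 library left out, against 7888.

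Deviations of same-numbered D6 and D8 libraries had a correlation across genes of 0.042, and over all pairs of days it was -0.10 to 0.21. With 2 libraries per day such correlations cannot tell whether replicate numbers pair the samples. With the replicate number as a block, 797 genes were higher and 796 lower, and 8080 differed between steps. Of the 181 named genes called as reported, the block kept 181, quantile normalization 176, median-of-ratios scaling 169, the pseudocount of 0.1 150, the fit of D6 and D8 alone 145, no trend 86 and no filter 44. With each library left out in turn 57 were kept in all 4 fits. At depths of 19409936 to 20161021 reads, 14 of 39 pluripotency genes lay at or under the 3-read limit in the D6 and D8 libraries, while Nanog was left out by the filter.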

Other observations

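Calls among chromatin and Hox genes are set against all tested genes, of which 4.72% were higher and 4.39% lower. The share lower was 12.5% for DNA methylation and demethylation genes and 3.23% for Polycomb genes. For chromatin remodelers it was 5.71% and for Hox genes 3.03%, and 0% of each of these lists was higher. Of 16 genes of DNA methylation and demethylation 2 fell and 0 rose: Dnmt1, the maintenance methyltransferase, from 81.2 and 85.4 to 60.2 and 69.05 CPM (-0.36 ± 0.07 on the log2 scale (SE), adjusted p = 0.01 in limma; the call was lost without D6 replicate 2 and D8 replicate 1 (adjusted p = 0.072 and 0.091)), and its partner Uhrf1 from 27.8 and 33.3 to 20.1 and 24.5 CPM (lost without D6 replicate 2 and D8 replicate 1 (adjusted p = 0.16 and 0.17)). Among 31 Polycomb genes 1 fell, and among 35 chromatin remodelers 2 fell. Phc2, a subunit of Polycomb complex 1, fell from 97.1 and 103 to 78.7 and 83.3 CPM (lost without D6 replicate 2 and D8 replicate 1 (adjusted p = 0.054 and 0.056)). Hox genes had 1 fall among 33, Hoxd12, from 7.18 and 6.65 to 5.204 and 4.97 CPM (lost without D6 replicate 1, D6 replicate 2, D8 replicate 1 and D8 replicate 2 (adjusted p = 0.16, 0.077, 0.094 and 0.12)).

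Piwil2, a germline PIWI protein, had risen from 0.496 and 0.448 CPM on day 2 and stood at 29.3 and 26.4 CPM in the D6 libraries and 33.3 and 43.2 CPM in the D8 libraries (0.43 ± 0.12 on the log2 scale (SE), adjusted p = 0.045; the call was lost without D6 replicate 1, D6 replicate 2 and D8 replicate 2 (adjusted p = 0.1, 0.21 and 0.3)). The clock gene Nr1d2, a repressor of Bmal1 transcription, rose from 52.1 and 47.5 to 65.7 and 65.5 CPM (0.39 ± 0.06 on the log2 scale (SE), adjusted p = 0.0026), with an adjusted p of at most 0.028 when a library was left out. Xist rose from 1042 and 1042 to 1211 and 1238 CPM (lost without D6 replicate 1, D6 replicate 2, D8 replicate 1 and D8 replicate 2 (adjusted p = 0.078, 0.078, 0.052 and 0.069)), while the 571 tested X-linked genes had a median difference of 0.047 with 30 higher and 16 lower. The imprinted antisense transcript Kcnq1ot1 rose from 35.8 and 37.5 to 54.3 and 44.1 CPM (lost without D6 replicate 1, D6 replicate 2 and D8 replicate 1 (adjusted p = 0.091, 0.055 and 0.13)); whether the counting used strand is not given in the sources used here. Rpph1, the RNA of ribonuclease P, was at 1.29 and 1.07 CPM in the D6 libraries and at 0 in both D8 libraries, at least 7.68-fold lower against a floor of 3 reads per library. On days 2 and 4 it was below that floor in all 4 libraries. Of 485 tested long non-coding RNA genes 19 were higher and 4 lower, against 698 and 660 of 13530 protein-coding genes.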
